A study of Mus musculus with 15 samples.

Results

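The genes described are 10 components of the transforming growth factor beta (TGF-beta) pathway: the ligands Tgfb1, Tgfb2 and Tgfb3, the receptors Tgfbr1, Tgfbr2 and Tgfbr3, the signal transducers Smad2 and Smad3, and the inhibitors Smad7 and Skil. They were chosen by name from the 17447 genes of the counts matrix, and each of the 10 had enough reads to be tested. Hearts of 15 male C57BL/6J mice in 5 groups (n = 3 per group) were collected 18 weeks after surgery for RNA-sequencing. WTSHAM mice were wild type and had a sham operation that removed no kidney tissue. WTCKD mice were wild type with chronic kidney disease (CKD) from subtotal nephrectomy and received a control vector. WTCKD+RNLS mice were wild type with CKD and received AAV9-cTnT-RNLS, an adeno-associated virus that expresses renalase (RNLS) from the cardiac troponin T promoter, which is active in cardiomyocytes. KOCKD and KOCKD+RNLS mice were rnls-/-, from TALEN targeting of exon 4, had CKD in the same way, and received the vector or the virus, respectively. Mice were 6 to 8 weeks old per the study's methods, and vector or virus was given by tail vein 2 weeks after the last operation. All groups but WTSHAM therefore share nephrectomy and an injected AAV9 vector or virus, and no knockout sham group was analysed here. The study's methods name Cyagen Biosciences for the knockout mice and Nanjing University for the wild-type mice. Genotype and source of the mice therefore cannot be told apart.

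TGF-beta ligands are secreted as latent complexes and are held in the extracellular matrix until they are released. Released ligand binds the type II receptor (encoded by Tgfbr2), which activates the type I receptor (Tgfbr1). The type I receptor phosphorylates SMAD2 and SMAD3, which enter the nucleus with SMAD4 and regulate transcription. The co-receptor betaglycan (Tgfbr3) presents ligand and can, when shed, sequester it. SMAD7 blocks the type I receptor and SnoN (Skil) represses SMAD targets, and both are themselves induced by the pathway. In the heart this pathway is best known for driving fibroblasts to deposit matrix.

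In these hearts Tgfb1 rose with CKD in wild-type mice, Tgfb1 and Smad3 fell with RNLS in wild-type CKD mice, and Tgfbr3 and Skil rose with RNLS in knockout CKD mice. Those 4 genes were also the members that differed in a joint test over the 5 groups, while Tgfb2, Smad2 and Smad7 passed no test and Tgfb3 passed only under some alternative settings. Tgfbr1 and Tgfbr2 were lower in KOCKD than in WTSHAM only. The RNLS effect was called different between genotypes for 0 of the 10 members, so calls in a single genotype do not show that the genotypes differ. Tgfbr3 also lay higher with RNLS in wild-type mice, and Tgfb1 lower in knockout mice, without overlap, but neither passed. The 2 of 10 members called with RNLS in knockout mice are near the 16.1% of all genes called. The calls of Tgfb1 with CKD and of Skil with RNLS were lost under some alternative settings. The plot of levels by library shows all 10 genes.

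**Figure D1:**
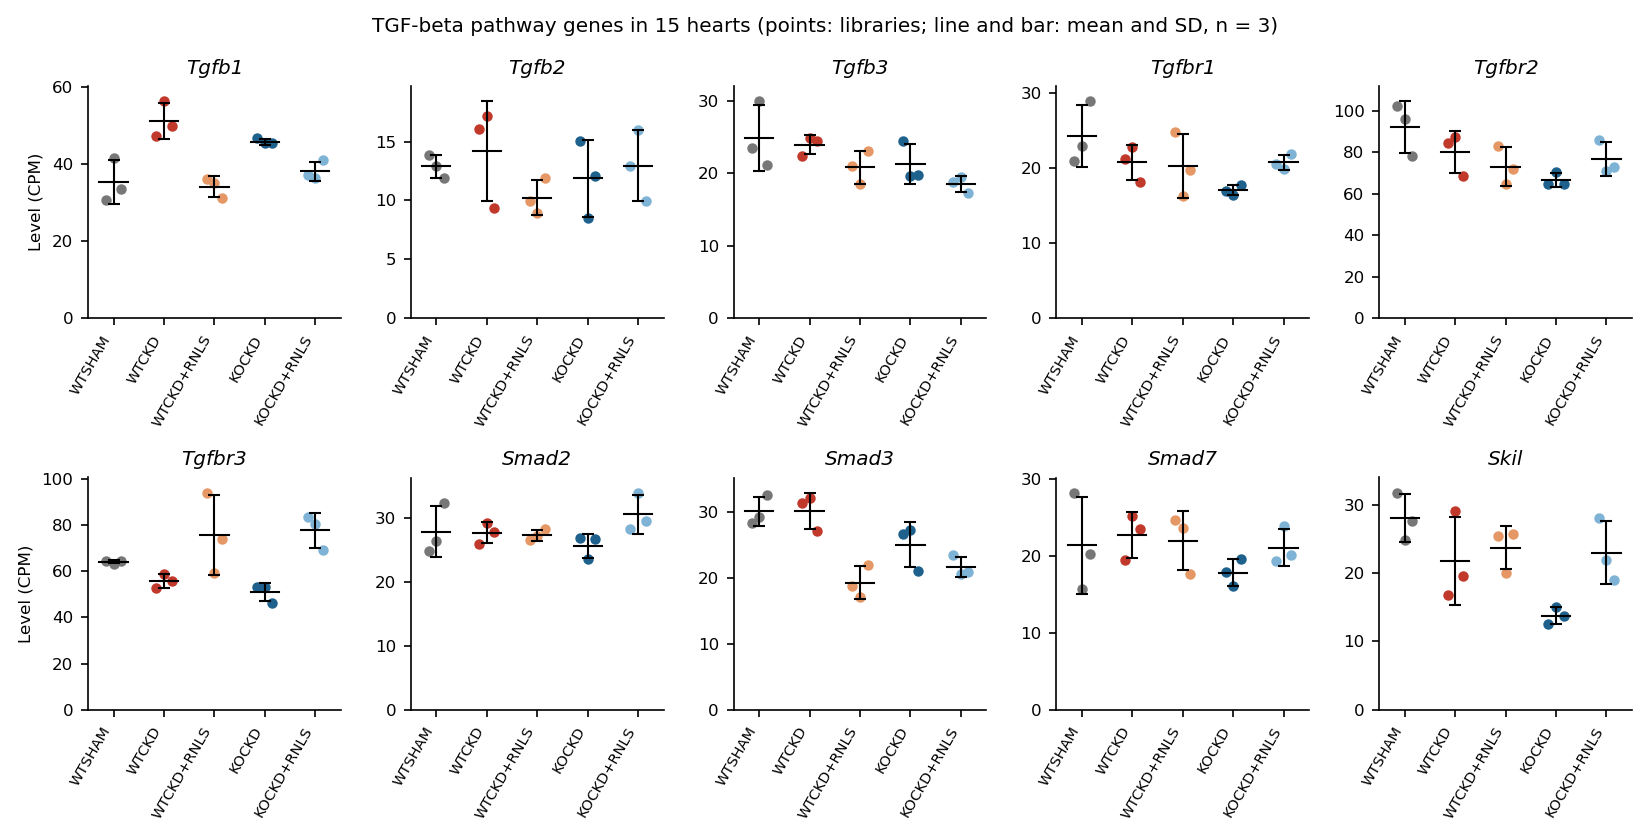
Level of each gene in CPM (reads per gene normalized to library size and scaled by edgeR's TMM method) in the 15 hearts, by group, with points for libraries and a line and bar for the mean and SD of 3. The 3 Tgfb1 points of WTCKD, from 47.3 to 56.4 CPM, lie above those of WTSHAM and of WTCKD+RNLS, and the 3 Skil points of KOCKD, from 12.6 to 15.1 CPM, lie below those of each other group.

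Between 10480788 and 13424078 reads were counted on genes per library. Replicates were separately labelled samples of a group, and no pair of replicate libraries was identical. The 12 cardiomyocyte markers summed to between 96050 and 130400 CPM (reads normalized to library size) in every library, so the labelled tissue's defining genes were present, and none of the lung markers had enough reads to be tested. Markers of the atria varied strongly within groups: Sln (sarcolipin) ran from 0.255 to 106 CPM in WTCKD and from 0.279 to 133 CPM in KOCKD, and was at most 0.0937 CPM in KOCKD+RNLS. They also differed between groups. All 9 tested atrial markers had log2 fold changes above 0 in WTCKD vs WTSHAM (median 1.02) and below 0 in WTCKD+RNLS vs WTCKD (median -2.20). In KOCKD+RNLS vs KOCKD 8 of 9 were below 0 (median -1.34). At an adjusted p under 0.05, edgeR called 0, 1 and 3 of them, against 2.3%, 4.47% and 16.1% of all genes. Whether hearts were cut or sampled alike is not given in the sources used here, so each test of the members was also fitted with the atrial markers as a covariate. The results for the further gene lists and the ratios are given without this covariate. Rnls itself was not analysed here, and the groups rest on the labels.

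The promoters of Tgfb1 and Smad3, the pair of members that fell together with RNLS in wild-type CKD mice, are shown to set their starts side by side. Of the 10 genes, 5 had a promoter entry in RefSeq (GRCm38.p6), and each sequence holds the 250 bases before the start, read 5′ to 3′ on the gene's strand, with matches to the GC box (GGGCGG on either strand) in capitals.
Tgfb1, chr7:25686752-25687001, plus strand: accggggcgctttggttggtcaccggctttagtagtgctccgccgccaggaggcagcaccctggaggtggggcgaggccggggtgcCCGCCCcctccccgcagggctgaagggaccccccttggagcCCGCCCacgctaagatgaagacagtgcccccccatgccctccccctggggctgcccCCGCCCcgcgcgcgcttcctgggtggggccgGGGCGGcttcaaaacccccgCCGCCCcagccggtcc
Smad3, chr9:63757995-63758244, minus strand: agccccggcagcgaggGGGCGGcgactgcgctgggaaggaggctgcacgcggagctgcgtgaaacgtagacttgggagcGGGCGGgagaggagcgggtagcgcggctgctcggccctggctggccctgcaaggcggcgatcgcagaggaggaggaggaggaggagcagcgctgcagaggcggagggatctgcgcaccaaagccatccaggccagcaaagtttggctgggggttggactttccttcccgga
The Tgfb1 window held 5 GC boxes and the Smad3 window 2, and 32.94% of 27025 mouse promoter windows of this length held at least 1. Neither window held the SMAD box CAGAC (present in 42.11% of windows), the E-box CACGTG (6.046%) or the AP-1 site TGANTCA (6.868%), each searched on both strands. GC boxes were not particular to this pair: of the 2 Tgfbr1 windows 1 held 2 of them, as many as Smad3, and Tgfbr1 was called in neither RNLS comparison. The Tgfb2 window held 2 SMAD boxes and 1 E-box and no GC box. These matches describe letters in a window and are not measured binding sites.

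Among the ligands, Tgfb1 was the most abundant on the per-length scale, with a mean of 14.9 to 23.6 FPKM (fragments normalized to gene length and library size, as deposited) across groups, against 5.50 to 7.53 for Tgfb3 and 1.89 to 2.77 for Tgfb2. Tgfb1 (ENSMUSG00000002603, mm9 chr7:26472021-26490096, plus strand) encodes TGF-beta 1, the isoform most studied in fibrosis. Its level was 30.8, 41.7 and 33.6 CPM in the WTSHAM libraries and 47.3, 56.4 and 50.03 CPM in the WTCKD libraries. All WTCKD values lay above all WTSHAM values. The means were 51.2 ± 4.68 and 35.3 ± 5.66 CPM (SD, n = 3), a log2 fold change of 0.53 (SE 0.11, edgeR quasi-likelihood test with Benjamini-Hochberg adjustment over 13021 genes, adjusted p = 0.0145). Tgfb1 was the 1 member of 10 called in WTCKD vs WTSHAM, where 2.3% of all genes tested were called in either direction and 0.599% were called higher. In the same comparison 2 of the 10 (Tgfb1 and Tgfbr3) did not overlap between groups, against 22.5% of all genes. The change stayed near this size but missed the threshold with only the 6 libraries compared (0.53, edgeR adjusted p = 0.0965), without WTSHAM replicate 3 (0.50, edgeR adjusted p = 0.0621) and without WTCKD replicate 2 (0.46, edgeR adjusted p = 0.0781).

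With RNLS in wild-type CKD mice, Tgfb1 was at 36.3, 35.2 and 31.2 CPM, below each WTCKD library. The mean of 34.2 ± 2.70 CPM (SD, n = 3) was lower than in WTCKD by a log2 fold change of -0.58 (SE 0.11, edgeR adjusted p = 0.00753), and this call held under each alternative run. WTCKD enters both this comparison and the comparison with sham, so the rise and the fall of Tgfb1 are not independent of each other. Against WTSHAM itself, a comparison added after the data were seen, Tgfb1 in WTCKD+RNLS gave -0.05 (95% confidence interval -0.28 to 0.18).

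In knockout mice Tgfb1 was tightly grouped in KOCKD, at 46.8, 45.5 and 45.4 CPM, and lower in each KOCKD+RNLS library, at 37.1, 36.4 and 41.0 CPM. The groups did not overlap, yet the log2 fold change of -0.27 (SE 0.11) did not pass (edgeR adjusted p = 0.103). It passed only when the fit was restricted to those 6 libraries (-0.27, edgeR adjusted p = 0.0321). KOCKD was higher than WTSHAM by 0.38 (edgeR adjusted p = 0.0324), a contrast in which knockout, CKD and the injected vector cannot be told apart. Without WTSHAM replicate 1 or 3, or without any single KOCKD library, that call missed the threshold, with changes from 0.29 to 0.38, as it did with gene length offsets (0.27) and with only the 6 libraries compared (0.38). In the order WTCKD, KOCKD, KOCKD+RNLS, WTSHAM, WTCKD+RNLS, no 2 neighbouring groups differed in Tgfb1 by the edgeR test, with adjusted p from 0.103 to 0.833.

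Tgfb3 (mm9 chr12:87397694-87419991, minus strand) encodes TGF-beta 3. It ranged from 17.2 CPM in KOCKD+RNLS to 29.9 CPM in WTSHAM over the 15 libraries. It was called in no comparison by edgeR as fitted here. Its largest difference was between KOCKD+RNLS (18.9, 19.4 and 17.2 CPM) and WTSHAM (23.5, 29.9 and 21.2 CPM), with no overlap, a log2 fold change of -0.43 (SE 0.13) and an edgeR adjusted p of 0.0514. DESeq2 gave the same size with an adjusted p of 0.036, and edgeR passed with RLE size factors and with gene length offsets (adjusted p = 0.0478 and 0.0476), and without WTSHAM replicate 3, WTCKD+RNLS replicate 2 or KOCKD replicate 1 (adjusted p = 0.0292, 0.0378 and 0.045). Tgfb2 (mm9 chr1:188447065-188529871, minus strand) encodes TGF-beta 2, known for its part in heart development. It was the lowest ligand, between 8.48 and 17.2 CPM, and its groups overlapped in each main comparison. Its 95% interval in WTCKD+RNLS vs WTCKD ran from -0.97 to 0.03 on the log2 scale, which leaves its direction unresolved with 3 mice a group.

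The make-up of the ligand pool was compared as Tgfb1's share of the summed FPKM of the 3 ligands, a ratio chosen after the data were seen. The share was 62.02% ± 2.45 in WTSHAM and 70.4% ± 1.39 in WTCKD (SD, n = 3), with no overlap between libraries. The exact two-sided permutation test gave p = 0.1, which is the smallest value that 3 against 3 can give. In WTCKD+RNLS the share was 65.7% ± 4.24 and overlapped that of WTCKD (exact permutation p = 0.2). In KOCKD and KOCKD+RNLS it was 71.1% ± 2.95 and 68.6% ± 3.799, with overlap (exact permutation p = 0.4). Leaving out any single library, the difference in percentage points ran from 7.05 to 9.45 in WTCKD vs WTSHAM, from -6.38 to -2.31 in WTCKD+RNLS vs WTCKD and from -4.54 to -0.81 in KOCKD+RNLS vs KOCKD, so the size of the last 2 rests on single libraries.

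Among the receptors, Tgfbr2 and Tgfbr3 exceeded Tgfbr1 per unit of length in each group, with mean FPKM of 13.9 to 19.7, 8.36 to 12.8 and 2.66 to 3.87. The deposited FPKM of Tgfbr2 imply a length of 4788 bases where the mm9 annotation has 8088 exon bases, so its FPKM relative to Tgfbr3 depends on the length used. Tgfbr3 (mm9 chr5:107535589-107718648, minus strand) encodes the co-receptor betaglycan. It was at 53.1, 53.1 and 46.3 CPM in KOCKD and at 83.4, 80.4 and 69.1 CPM in KOCKD+RNLS. All KOCKD+RNLS libraries were higher than all KOCKD libraries. The log2 fold change was 0.61 (SE 0.13, edgeR adjusted p = 0.00603), and it passed under each alternative run. Tgfbr3 and Skil were the 2 of 10 members called in KOCKD+RNLS vs KOCKD, where 16.1% of all genes were called and 9.05% were called higher, so this share of members is near the background. In the same comparison 7 of the 10 members did not overlap between groups, against 40.6% of all genes.

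In wild-type CKD mice Tgfbr3 also lay higher with RNLS, at 94.0, 59.3 and 73.7 CPM against 52.5, 58.6 and 55.6 CPM without. The lowest WTCKD+RNLS library stood only just above the highest WTCKD library. The log2 fold change of 0.45 (SE 0.13) fell short in edgeR (adjusted p = 0.0566). It passed in DESeq2 (0.45, adjusted p = 0.0188), without the filter on low counts, with gene length offsets and without WTCKD+RNLS replicate 2 (0.58, edgeR adjusted p = 0.00682). The RNLS effect on Tgfbr3 did not differ detectably between genotypes, with a difference, knockout minus wild type, of 0.17 on the log2 scale (95% interval -0.21 to 0.55).

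Tgfbr2 (mm9 chr9:115993415-116084383, minus strand), the ligand-binding type II receptor, was at 103, 95.9 and 78.5 CPM in WTSHAM and at 84.4, 87.7 and 68.7 CPM in WTCKD. It was lowest in KOCKD, at 64.7, 70.4 and 64.8 CPM. KOCKD was below WTSHAM without overlap (log2 fold change -0.47, SE 0.12, edgeR adjusted p = 0.0213). Tgfbr1 (mm9 chr4:47366094-47427803, plus strand), the signalling type I receptor, was at 20.9, 22.9 and 28.8 CPM in WTSHAM and at 17.0, 16.4 and 17.7 CPM in KOCKD. It too was lower in KOCKD (-0.51, SE 0.15, edgeR adjusted p = 0.0352). Both calls were lost with gene length offsets. That of Tgfbr1 was also lost with only the 6 libraries compared, without WTSHAM replicate 2 or 3, and without any single KOCKD library, with changes from -0.55 to -0.37. That of Tgfbr2 was also lost without WTSHAM replicate 1 or 2 and without KOCKD replicate 1 or 3, with changes from -0.45 to -0.39. Neither receptor was called in either RNLS comparison, though Tgfbr1 passed in KOCKD+RNLS vs KOCKD with the atrial covariate (0.44, edgeR adjusted p = 0.0429). In KOCKD vs WTSHAM 4 of 10 members were called, against 13.8% of all genes, and 3 of them were lower, against 8.35%. In the same comparison 10 of 12 macrophage markers (median log2 fold change -0.86) and 4 of 14 fibroblast markers (median -0.51) were called lower, and their part in the values of these receptors and of Skil was not tested. There 6 members did not overlap between groups, against 33.8% of all genes, while in WTCKD+RNLS vs WTSHAM and KOCKD+RNLS vs WTSHAM 2 and 3 did not, against 22.7% and 32.6%.

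The number of Tgfbr3 reads per Tgfbr2 read, a ratio within a library that depends on no scaling and was chosen after the data were seen, was 0.703 ± 0.102 in WTSHAM and 0.70 ± 0.0984 in WTCKD (SD, n = 3). It was 1.02 ± 0.107 in WTCKD+RNLS, 0.764 ± 0.0537 in KOCKD and 1.02 ± 0.103 in KOCKD+RNLS. In each genotype all libraries with RNLS lay above all libraries without (exact two-sided permutation p = 0.1 in each, the smallest possible). Leaving out any single library, the difference stayed between 0.271 and 0.379 in wild-type and between 0.193 and 0.287 in knockout mice.

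Of the receptor-regulated transducers, Smad3 moved and Smad2 did not pass any test. Smad3 (mm9 chr9:63494574-63605801, minus strand) encodes the transducer that binds DNA directly and is closely tied to fibroblast activation. It was at 28.3, 29.3 and 32.7 CPM in WTSHAM and at 31.4, 32.2 and 27.1 CPM in WTCKD, a log2 fold change of 0.01 (95% interval -0.25 to 0.26). In WTCKD+RNLS it was at 18.9, 17.1 and 21.97 CPM. Each of these libraries lay below all WTCKD and all WTSHAM libraries. Smad3 fell by 0.64 on the log2 scale with RNLS (SE 0.12, edgeR adjusted p = 0.0085), and the call held under each alternative run. Tgfb1 and Smad3 were the 2 of 10 members called in WTCKD+RNLS vs WTCKD, where 4.47% of genes were called and 2.28% were called lower. There 3 members (Tgfb1, Tgfbr3 and Smad3) did not overlap between groups, against 21.2% of all genes. WTCKD+RNLS was also below WTSHAM (-0.64, edgeR adjusted p = 0.00512), the only member called in that comparison, where 7.69% of genes were called and 4.81% were called lower.

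In knockout mice Smad3 was at 26.7, 27.3 and 21.1 CPM in KOCKD and at 23.5, 20.6 and 21.0 CPM in KOCKD+RNLS. The groups overlapped, and the log2 fold change was -0.20 (SE 0.12, edgeR adjusted p = 0.274). The difference between the RNLS effects in the genotypes, knockout minus wild type, was 0.44 (SE 0.17) and did not pass (unadjusted p = 0.0226, edgeR adjusted p = 0.212). A call in wild-type mice alone therefore does not show that the genotypes differ. KOCKD+RNLS was below WTSHAM (-0.47, edgeR adjusted p = 0.0203), the 1 member called where 11.1% of genes were called and 6.34% were called lower. The call was lost with the atrial covariate (-0.40, edgeR adjusted p = 0.0856) and without WTSHAM replicate 2 or 3 or KOCKD+RNLS replicate 2 or 3.

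Smad2 (mm9 chr18:76401234-76465385, plus strand), the other transducer, stayed between 23.5 and 33.9 CPM over the 15 libraries. Its 95% interval was -0.24 to 0.22 in WTCKD vs WTSHAM and -0.25 to 0.21 in WTCKD+RNLS vs WTCKD. In KOCKD+RNLS vs KOCKD all values were higher with RNLS, with a log2 fold change of 0.25 that did not pass (SE 0.11, edgeR adjusted p = 0.129). Leaving out any single library, it stayed between 0.17 and 0.30. Over the alternatives that kept all libraries of these groups it ran from -0.07 to 0.33, so its direction depended on the setting. The deposited FPKM of Smad2 imply a gene length of 14166 bases where the mm9 annotation has 3549 exon bases, so its FPKM was not set against those of the other members. The gene length offsets used the implied length. The reads of Smad3 per read of Smad2 were 1.10 ± 0.117 in WTCKD and 0.707 ± 0.0761 in WTCKD+RNLS (SD, n = 3), with no overlap (exact permutation p = 0.1). In KOCKD and KOCKD+RNLS the ratio was 0.984 ± 0.186 and 0.718 ± 0.113, with overlap (exact permutation p = 0.2), and the higher Smad2 values with RNLS are its divisor there. Leaving out any single library, the difference with RNLS ran from -0.449 to -0.333 in wild-type and from -0.362 to -0.176 in knockout mice.

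**Figure D2:**
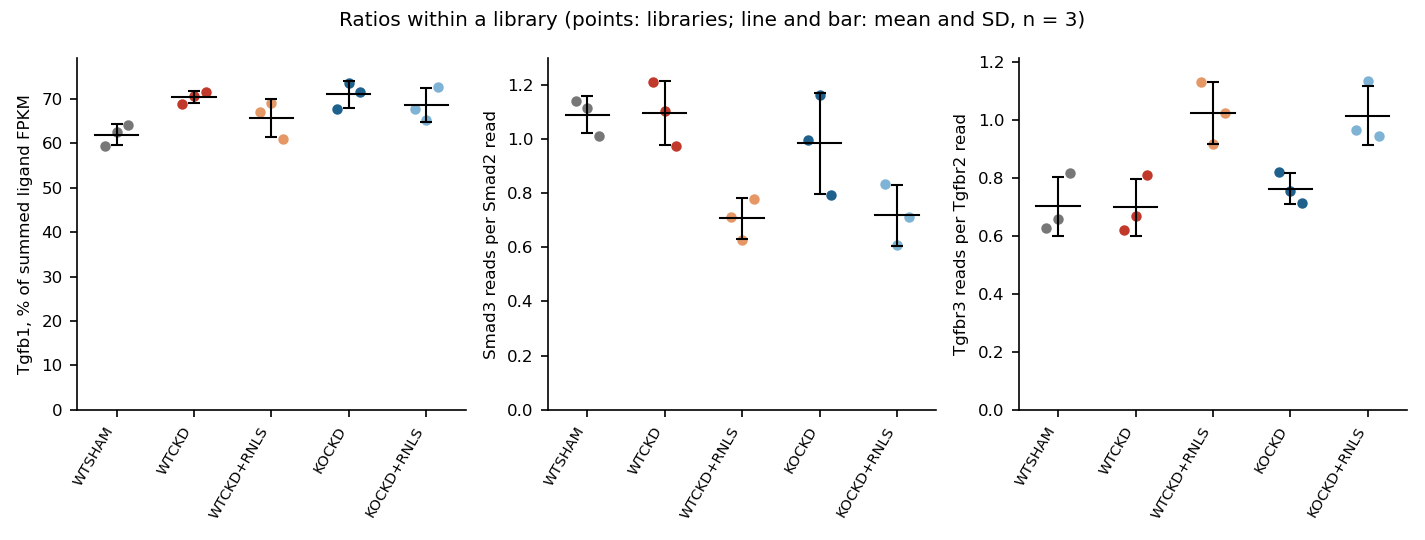
Ratios within each library by group, with points for libraries and a line and bar for the mean and SD of 3: Tgfb1 as a percent of the summed FPKM of the 3 ligands, Smad3 reads per Smad2 read, and Tgfbr3 reads per Tgfbr2 read. Smad3 per Smad2 is 0.707 in WTCKD+RNLS against 1.10 in WTCKD, and Tgfbr3 per Tgfbr2 is 1.02 in the groups with RNLS against 0.70 to 0.764 in the others.

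Of the inhibitors, Skil moved and Smad7 did not pass any test. Skil (mm9 chr3:30993980-31021499, plus strand) encodes SnoN, a repressor of SMAD-driven transcription. It was at 31.8, 24.8 and 27.7 CPM in WTSHAM and widely spread in WTCKD, at 16.8, 29.1 and 19.6 CPM. It was at 25.4, 20.1 and 25.7 CPM in WTCKD+RNLS. These groups overlapped, and Skil passed no test among wild-type mice. In KOCKD it was at 12.6, 15.1 and 13.7 CPM, and in KOCKD+RNLS at 28.03, 21.9 and 19.0 CPM. Skil rose with RNLS in knockout mice by a log2 fold change of 0.74 (SE 0.19, edgeR adjusted p = 0.0178). The call was lost with gene length offsets (0.57, edgeR adjusted p = 0.0775), without KOCKD replicate 1 (0.68, edgeR adjusted p = 0.0586) and without KOCKD+RNLS replicate 1 (0.57, edgeR adjusted p = 0.0862).

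Skil was also lower in KOCKD than in WTSHAM, by a log2 fold change of -1.02 (SE 0.19, edgeR adjusted p = 0.00393), a call that held under each alternative run. In the order WTSHAM, WTCKD+RNLS, KOCKD+RNLS, WTCKD, KOCKD, the last step was from 21.8 ± 6.45 to 13.8 ± 1.251 CPM (SD, n = 3), without overlap. This difference of KOCKD from WTCKD was -0.66 (SE 0.19, unadjusted p = 0.00339), and it did not pass the adjustment (edgeR adjusted p = 0.444). Smad7 (mm9 chr18:75527183-75555589, plus strand), the inhibitory SMAD, ranged from 15.7 to 28.2 CPM, both extremes being in WTSHAM. Its groups overlapped in every comparison made.

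**Figure D3:**
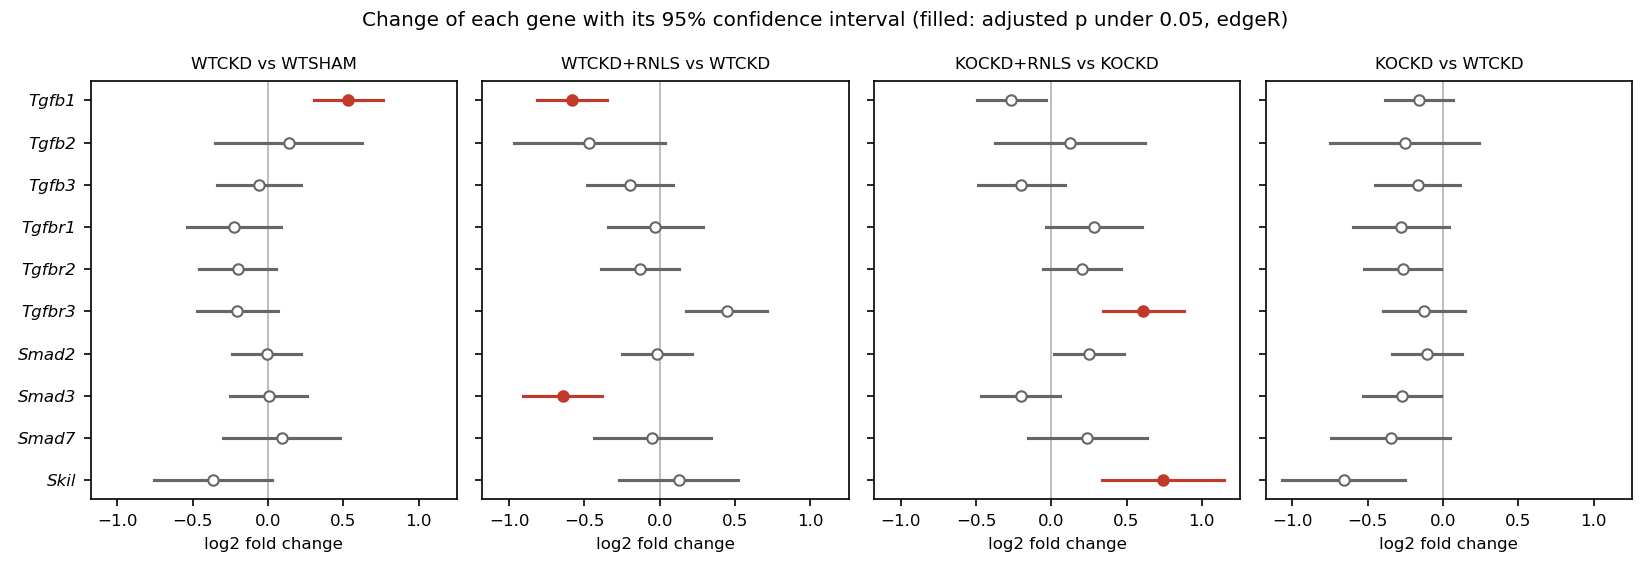
Log2 fold change of each of the 10 genes (points) with its 95% confidence interval (lines) in 4 comparisons, filled red where the edgeR adjusted p is under 0.05. Tgfb1 is filled at 0.53 with CKD and at -0.58 with RNLS in wild-type mice, Smad3 at -0.64 in the latter, and Tgfbr3 and Skil at 0.61 and 0.74 with RNLS in knockout mice, while the estimates of KOCKD vs WTCKD all lie below 0.

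Between KOCKD and WTCKD, the comparison that addresses the loss of RNLS under CKD, edgeR called 0 of the 10 members and 0 of 13021 genes. At an unadjusted p under 0.05 there were 3 members (Tgfbr2, Smad3 and Skil) and 10.1% of all genes. DESeq2 called 0 members and 9 genes. The study's own rule, a fold change threshold with an unadjusted p under 0.05, called 1 member (Skil) and 5.62% of all genes. The 10 estimates were all below 0, with a median of -0.26 where the median over all genes was -0.0047, and 3 members (Tgfb1, Tgfbr1 and Skil) did not overlap between groups, against 19.3% of all genes. The 10 genes share the same 6 libraries, so they are not 10 separate observations. The test of the difference of the RNLS effect between genotypes also called 0 members in edgeR and in DESeq2, with 2 members at an unadjusted p under 0.05 (Smad3 and Skil) against 17.6% of all genes. The study's rule called those 2 members there, against 15.2% of all genes. The same rule called 2 members in WTCKD+RNLS vs WTSHAM (Tgfbr2 and Smad3) and 2 in KOCKD+RNLS vs WTSHAM (Tgfb3 and Smad3), against 16% and 18.9% of all genes. Over the 5 groups together, 4 of 10 members differed (edgeR adjusted p from 0.00423 for Tgfb1 to 0.0138 for Skil), against 22.2% of all genes. Without KOCKD replicate 1 the test of Skil over the groups missed the threshold (edgeR adjusted p = 0.0542).

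Of 18 genes for latency and activation of the ligands, 0 were called with CKD by edgeR, and 3 fell and 0 rose in WTCKD+RNLS vs WTCKD (16.7%, against 4.47% of all genes). There 16 of 18 estimates were below 0, with a median of -0.53 against 0.01 over all genes. In KOCKD+RNLS vs KOCKD 2 fell and 1 rose, a share near the 16.1% of all genes called there. Fbn1 (fibrillin 1, the microfibril that anchors latent complexes) ran from 84.5 to 126 CPM in WTCKD and from 33.4 to 54.1 CPM in WTCKD+RNLS (log2 fold change -1.21, SE 0.24, edgeR adjusted p = 0.0106). Mmp14, a membrane protease that can release latent ligand, ran from 33.6 to 39.0 CPM and from 14.2 to 21.4 CPM (-1.08, SE 0.16, edgeR adjusted p = 0.00206). Ltbp4, a latent TGF-beta binding protein, fell by 0.57 on the log2 scale (edgeR adjusted p = 0.0175). In KOCKD+RNLS vs KOCKD the same protease and microfibril genes were lower (Mmp14 -1.07, edgeR adjusted p = 0.00161; Fbn1 -0.79, edgeR adjusted p = 0.0384), while Ltbp1, another binding protein, was higher (0.48, edgeR adjusted p = 0.0144).

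Of 10 tested genes of the rest of the receptor arm, 1 was called in WTCKD+RNLS vs WTCKD and 2 in KOCKD+RNLS vs KOCKD. These are 10% and 20%, against 4.47% and 16.1% of all genes, so the share in knockout mice is near the background. The list medians were -0.10 and -0.09. Acvr1b, a type I receptor for activins, rose with RNLS in each genotype. It ran from 23.1 to 25.7 CPM in WTCKD and from 30.7 to 35.6 CPM in WTCKD+RNLS (log2 fold change 0.45, SE 0.09, edgeR adjusted p = 0.0114). It ran from 20.3 to 22.8 CPM in KOCKD and from 30.1 to 33.9 CPM in KOCKD+RNLS (0.53, SE 0.09, edgeR adjusted p = 0.00267). Tgfbrap1, a receptor-associated protein, rose with RNLS in knockout mice (0.39, edgeR adjusted p = 0.0144) and was not called in wild-type mice, while the difference between genotypes passed for 0 of 13021 genes in edgeR and for 363 in DESeq2.

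Of 22 tested SMAD partners and regulators, 0 were called in WTCKD vs WTSHAM and in WTCKD+RNLS vs WTCKD, and 6 rose in KOCKD+RNLS vs KOCKD. Of all genes, 2.3%, 4.47% and 16.1% were called in these comparisons and 9.05% were called higher in the last. In the reported fit calls were thus also more frequent among all genes in knockout mice. There 2095 genes were called with RNLS, against 582 in wild-type mice. With gene length offsets these counts were 736 and 721, so the excess in knockout mice was nearly absent. The part of gene length in the calls of these 6 genes and of the non-SMAD genes named below was not tested. Ep300, the p300 acetyltransferase that SMADs recruit, ran from 42.4 to 46.2 CPM in KOCKD and from 80.8 to 84.9 CPM in KOCKD+RNLS (0.88, SE 0.11, edgeR adjusted p = 0.000823). The others named by size were Ldlrad4, an inhibitor of SMAD2 and SMAD3 activation (0.77), Usp9x, a deubiquitinase of SMAD4 (0.50), and Rnf111, the ligase Arkadia that degrades SnoN and SMAD7 (0.46), with edgeR adjusted p of 0.0147, 0.00672 and 0.0141. Activators and inhibitors of the pathway were both among them. Against WTSHAM, 4 genes of this list were lower and 1 higher in KOCKD (22.7%, against 13.8% of all genes), among them Ldlrad4 (-0.87), Ep300 (-0.68) and Usp9x (-0.53), with edgeR adjusted p of 0.00916, 0.00149 and 0.00644. KOCKD libraries enter both comparisons, as they do for Skil. With gene length offsets the number of all genes called in KOCKD vs WTSHAM went from 1795 to 978. Smad4, the common partner, was not called in the main comparisons, with 75.3 ± 4.09 CPM in WTSHAM and 80.7 ± 6.33 CPM in WTCKD (SD, n = 3). Of 11 genes of the non-SMAD branch, 3 rose and 1 fell in KOCKD+RNLS vs KOCKD (16.1% of all genes were called there), among them the TAK1-binding partner Tab3 (0.55) and the kinase Rock1 (0.49), and 0 were called in the other main comparisons.

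Among 27 tested genes known as TGF-beta targets, 0 were called with CKD by edgeR and the median estimate was -0.29. With RNLS, 4 fell and 1 rose in wild-type mice, and 5 fell and 1 rose in knockout mice, with medians of -0.48 and -0.46. Counted in either direction these are 18.5% and 22.2% of the list, against 4.47% and 16.1% of all genes, so that share in knockout mice is near the background. By direction the 2 differ: 9.05% of all genes were called higher in knockout mice, more than were called lower, whereas 5 targets fell and 1 rose. Col3a1, a fibrillar collagen chain, ran from 239 to 302 CPM in WTCKD and from 67.2 to 92.4 CPM in WTCKD+RNLS (-1.72, SE 0.24, edgeR adjusted p = 0.00137). It ran from 168 to 248 CPM in KOCKD and from 56.0 to 80.7 CPM in KOCKD+RNLS (-1.58, SE 0.24, edgeR adjusted p = 0.00161). Cdkn1a, the cell cycle inhibitor p21, fell by 1.48 in wild-type and by 1.54 in knockout mice on the log2 scale (edgeR adjusted p = 0.00675 and 0.00337). Postn (periostin, a matrix protein of activated fibroblasts) and Col1a1 fell in each genotype, and Lox (lysyl oxidase, which crosslinks collagen) fell in knockout mice (-0.95, edgeR adjusted p = 0.0489). Timp3, an inhibitor of matrix proteases, rose by 0.69 in wild-type and 0.92 in knockout mice (edgeR adjusted p = 0.0112 and 0.00161). Against WTSHAM, 12 of the 27 targets were lower in KOCKD+RNLS and 0 were higher (11.1% of all genes were called there), with a median of -0.95, and 8 were lower in WTCKD+RNLS (7.69% of all genes were called), with a median of -0.87. The changes in KOCKD+RNLS included Cilp, a matrix protein that binds TGF-beta 1 (-3.29), Thbs1, a thrombospondin that can activate latent ligand (-3.04), and Timp1, an inhibitor of matrix proteases (-2.38), with edgeR adjusted p of 0.000267, 0.00162 and 0.0016. The 12 macrophage markers moved in the same comparison, with 11 called lower and a summed level of 300.4 to 391.7 CPM against 579 to 765 CPM in WTSHAM, and their part in these values was not tested. The direct target Ccn2 was not called, at -0.48 (SE 0.25) in wild-type and 0.21 (SE 0.25) in knockout mice with RNLS.

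**Figure D4:**
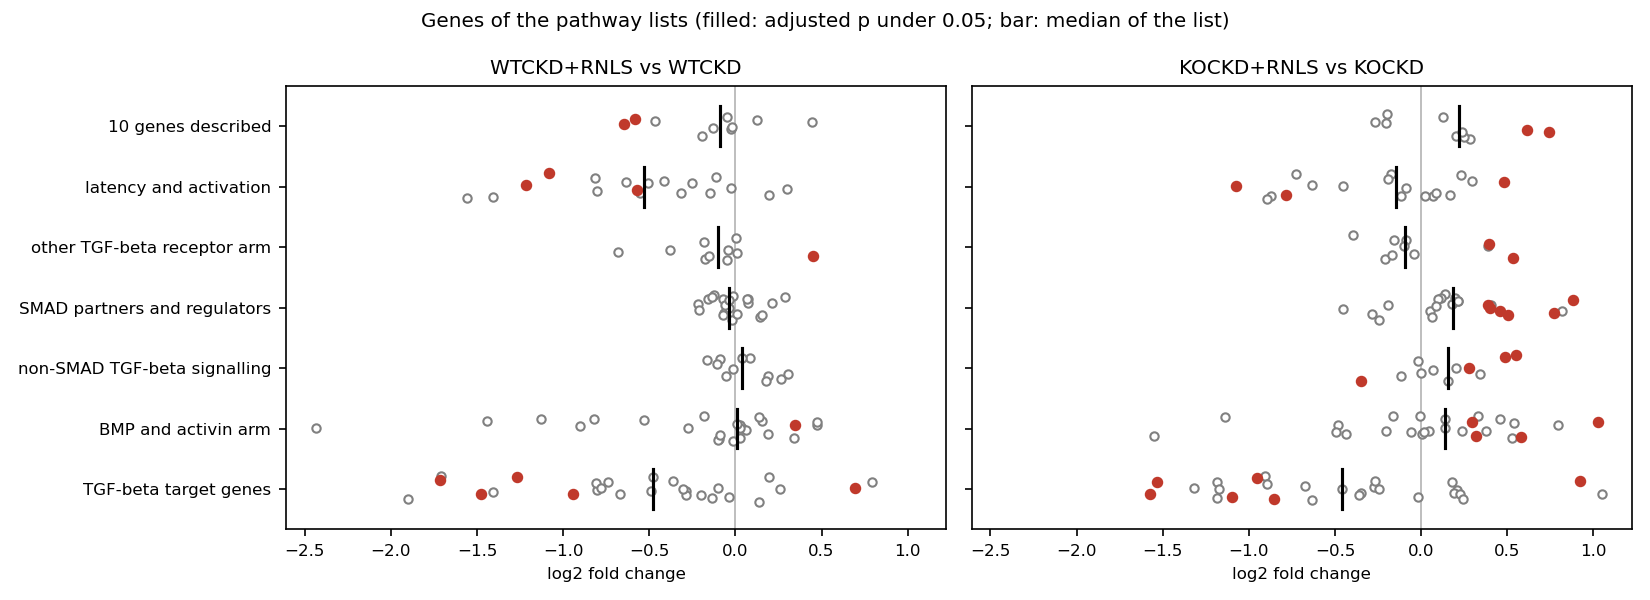
Log2 fold change of each gene of the 10 described and of 6 further pathway lists with RNLS in wild-type (left) and knockout (right) CKD mice, filled red where the edgeR adjusted p is under 0.05, with a bar at the median of each list. The medians of latency and activation genes lie at -0.53 on the left and -0.14 on the right, those of target genes at -0.48 and -0.46, and 6 filled points of SMAD partners and regulators lie above 0 on the right only.

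Other measures moved with the same groups, and their part in these results was not tested. All 14 fibroblast markers had estimates below 0 in WTCKD+RNLS vs WTCKD, 3 of them called, with a summed level of 2839 to 4567 CPM in WTCKD and of 2230 to 3066 CPM in WTCKD+RNLS. Of 14 endothelial markers 13 had estimates below 0 there and 5 were called, with sums of 2172 to 2445 CPM and of 1767 to 1967 CPM. Of all genes 4.47% were called in that comparison. In KOCKD+RNLS vs KOCKD 2 endothelial markers were called higher and 3 lower, and 9 of 14 estimates were below 0, where 16.1% of all genes were called. In bulk RNA, fewer cells of a type and less RNA per cell cannot be told apart. Those fibroblast sums overlapped, as they did in KOCKD and KOCKD+RNLS, at 2564 to 3448 CPM and 2526 to 2917 CPM. In KOCKD+RNLS vs KOCKD 11 of the 14 fibroblast estimates lay below 0 and 3 were called lower, where 16.1% of all genes were called in either direction. The mean log2 level of the fibroblast list did not overlap there (6.31 to 6.62 without and 5.95 to 6.22 with RNLS). The 12 cardiomyocyte markers summed higher with RNLS without overlap in each genotype, at 97530 to 113114 CPM in WTCKD and 119728 to 130400 CPM in WTCKD+RNLS, and at 99970 to 107965 CPM in KOCKD and 113532 to 116128 CPM in KOCKD+RNLS. All 12 estimates were above 0 in wild-type mice (1 called, with 4.47% of all genes called). In knockout mice 4 of 12 were above 0 (3 called higher, with 9.05% of all genes called higher). The fibroblast and target lists share Col1a1, Col1a2 and Col3a1.

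The 12 macrophage markers all had estimates below 0 in WTCKD vs WTSHAM, 1 of them called (2.3% of all genes were called). Their sums were 446 to 602 CPM in WTCKD and 579 to 765 CPM in WTSHAM. With RNLS all 12 were below 0 in wild-type mice (median -0.33, 0 called), with overlapping sums of 410 to 448 CPM in WTCKD+RNLS. In knockout mice 11 of 12 were below 0 with RNLS and 2 were called lower (16.1% of all genes were called). The sums there were 403 to 485 CPM without and 300.4 to 391.7 CPM with RNLS. The part of these markers in the values of Tgfb1 was not tested. Erythrocyte markers summed to 38.1 to 107 CPM in WTCKD and to 68.5 to 627 CPM in WTSHAM. They summed to 218 to 530 CPM in WTCKD+RNLS, without overlap with WTCKD. All 6 tested estimates were above 0 against WTCKD (median 2.76, 1 called, with 4.47% of all genes called). In KOCKD and KOCKD+RNLS the sums overlapped, at 51.1 to 375 and 73.8 to 293 CPM. All 5 tested adipocyte markers were below 0 with RNLS in each genotype (medians -3.33 and -1.98). Of them 0 and 1 were called, against 4.47% and 16.1% of all genes. The part of both lists was not tested. The 15 clock genes differed strongly with RNLS: 8 rose and 3 fell in wild-type mice, and 7 rose and 2 fell in knockout mice. These are 73.3% and 60% of the list, against 4.47% and 16.1% of all genes. Arntl (Bmal1, the core activator of the clock) was at 30.5 to 34.0 CPM in WTCKD and at 1.34 to 2.45 CPM in WTCKD+RNLS. The time of day of collection is not given in the sources used here, and its part in the RNLS comparisons, of which Tgfb1, Smad3, Tgfbr3 and Skil are part, was not tested. With the atrial markers as a covariate, the calls of Tgfb1 and Smad3 in WTCKD+RNLS vs WTCKD, of Tgfb1 in WTCKD vs WTSHAM, and of Tgfbr3 and Skil in KOCKD+RNLS vs KOCKD all held.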

How the data were processed

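Total RNA of 15 hearts was made into stranded mRNA libraries and sequenced on HiSeq instruments, and which model served which library is not given in the sources used here. The authors used Trimmomatic for trimming, HISAT2 for alignment and HTSeq for counting, and the deposited counts are raw whole numbers. FPKM values were deposited too, and the study's methods name Cufflinks for them. The deposited values equal counts over a fixed gene length and the library total. The study's methods name mm9 and the submitters' processing notes GRCm39; tool versions, annotation and strand option are not given in the sources used here. Gene coordinates above are from the mm9 annotation of GENCODE, and no member shares exon bases with another gene there.

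The counts of 15 libraries (10480788 to 13424078 reads) were fitted with edgeR 4.0.16 in R 4.3.3: TMM factors (0.9253 to 1.05), the default filter (minimum count 10, minimum total 15), group as the only term, quasi-likelihood tests, Benjamini-Hochberg adjustment over 13021 genes and calls at an adjusted p under 0.05. CPM are TMM-scaled. Ratios were compared by exact two-sided permutation tests (scipy 1.17.1). P-values measure the spread between separately labelled samples. Alternatives were RLE size factors, no filter, DESeq2 1.42.0, a replicate block, the compared libraries alone, each library left out, the study's call rule (a fold change threshold with an unadjusted p under 0.05), gene length offsets and an atrial-marker covariate. The code was tested on simulated data. Named genes were all 10 members and, of each other pathway list, up to 4 genes called per comparison by size; Smad4, Ccn2, Timp3 with RNLS and Postn in knockout mice were chosen after seeing values. The 10 genes, lists and tests were chosen with earlier results of these data known, and the comparisons of the other CKD groups with WTSHAM and the ratios were added after seeing the data. Rnls was not analysed here.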

Additional observations from a re-analysis of the deposited data

How the results depend on the processing

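No value of the 10 genes reversed a called direction under any alternative run, and of their alternative values 1917 kept their side of the threshold, 31 dropped out of the calls and 21 entered them. Of 1759 signed values, 52 that were called neither in the reported fit nor under the alternative changed sign. With only the libraries compared, WTCKD vs WTSHAM had 0 members called. Under gene length offsets KOCKD+RNLS vs KOCKD had 1, KOCKD vs WTSHAM 1 and KOCKD+RNLS vs WTSHAM 2. Under the study's call rule KOCKD vs WTCKD had 1 (Skil), the difference of the RNLS effect 2 (Smad3 and Skil), WTCKD+RNLS vs WTSHAM 2 and KOCKD+RNLS vs WTSHAM 2. The last also had 2 with RLE size factors and with DESeq2 (Tgfb3 and Smad3), and 0 with the atrial covariate. Leaving out each library in turn gave 0 to 1 members in WTCKD vs WTSHAM, 1 to 2 in KOCKD+RNLS vs KOCKD, 1 to 5 in KOCKD vs WTSHAM and 0 to 2 in KOCKD+RNLS vs WTSHAM.

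With the replicate number as a block, edgeR called 1 member in WTCKD vs WTSHAM, 2 in WTCKD+RNLS vs WTCKD, 2 in KOCKD+RNLS vs KOCKD, 0 in KOCKD vs WTCKD and 0 for the difference of the RNLS effect, the same numbers as without it. Over the 5 groups it called 5, with Tgfbr2 added (adjusted p = 0.0447), which also passed without the filter and in DESeq2 (adjusted p = 0.0498 and 0.0263). Deviations of same-numbered libraries from their group means correlated from -0.36 to 0.33, so the numbers do not pair the samples.

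The median over all genes shifted by at most 0.01003 (log2) in size under RLE scaling, and its largest shift under any scaling, filter or covariate was -0.0192, with gene length offsets in WTCKD+RNLS vs WTCKD. With 3 mice a group, the 95% intervals of the members were 0.45 to 1.41 wide on the log2 scale.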

Other observations

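In the bone morphogenetic protein (BMP) and activin arm, the sister branch of the pathway, 25 of 30 listed genes in the table were tested. Of these, 1 was called in WTCKD vs WTSHAM (4%, against 2.3% of all genes) and 1 in WTCKD+RNLS vs WTCKD (4%, against 4.47%). In KOCKD+RNLS vs KOCKD 4 were called, all higher (16%, against 16.1% of all genes called and 9.05% called higher). The shares called with RNLS are thus near those of all genes. Bmpr1a, a type I BMP receptor, ran from 104 to 115 CPM in WTSHAM and from 81.6 to 90.4 CPM in WTCKD (log2 fold change -0.37, SE 0.08, edgeR adjusted p = 0.022). It ran from 97.0 to 117 CPM in WTCKD+RNLS, higher than in WTCKD (0.34, edgeR adjusted p = 0.0218). In knockout mice it ran from 87.3 to 91.7 CPM without and from 105 to 114 CPM with RNLS (0.30, edgeR adjusted p = 0.0205). WTCKD enters the first 2 of these comparisons. The part of gene length in the knockout calls of this arm was not tested. Bmpr2, the type II BMP receptor, rose with RNLS in knockout mice from 88.8 ± 7.47 to 133 ± 11.5 CPM (SD, n = 3, log2 fold change 0.58, edgeR adjusted p = 0.00229), as did Chrd (chordin, a BMP antagonist, 1.02, edgeR adjusted p = 0.0459) and Acvr2a (an activin type II receptor, 0.32, edgeR adjusted p = 0.0264).

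Across the 15 libraries, the genes whose log2 CPM followed a member most closely, of 11623 genes, were Trp53 for Tgfb1 (Pearson r = 0.920), Strn for Tgfbr3 (0.928), Septin5 for Smad3 (0.935) and Prdm11 for Skil (0.911). These values describe libraries that fall into groups and share scaling.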
